A study of Mus musculus with 8 samples.

Results

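The genes described here are 8 members of the interleukin 1 and inflammasome system, chosen by name: Il1b, Il1a, Il1rn, Il1r2, Nlrp3, Casp1, Il18 and Gsdmd. All 8 were found among the 32285 genes of the count table. Their levels are given in macrophages, monocytes, dendritic cells and granulocytes, as the authors named them, which made up 10997 of the 22441 cells. NIT-1 cells, a beta cell line from NOD mice, either WT or Rnls mutant, were placed under the skin of opposite flanks of NOD.scid mice, and 4 days later every mouse received splenocytes of recently diabetic NOD mice. CD45+ immune cells of the grafts were sorted 10 or 17 days after the transfer and measured by droplet single-cell RNA sequencing, which gave 4 groups of 4 grafts: WT day 10, Rnls mutant day 10, WT day 17 and Rnls mutant day 17. The 4 grafts of a group carried hashtags and shared 1 library, so that genotype and day at each group cannot be told apart from the library. NOD.scid mice lack mature T and B cells but keep their own myeloid cells, so that a myeloid cell of the host and one of the transferred spleen cells cannot be told apart here.

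Interleukin 1 beta and interleukin 1 alpha, encoded by Il1b and Il1a, are inflammatory cytokines that signal through a shared receptor. Il1rn encodes a secreted antagonist that occupies this receptor without signalling, and Il1r2 encodes a decoy receptor that binds the ligands. Pro-interleukin 1 beta and pro-interleukin 18 (Il18) are cut by caspase 1 (Casp1) once a sensor such as NLRP3 assembles an inflammasome, and gasdermin D (Gsdmd) forms the membrane pores through which the mature cytokines leave. RNA levels report none of these protein steps.

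Il1b lies on chromosome 2 at 129364570 to 129371139 on the minus strand of GRCm38, and Il1a lies on the same strand at 129299610 to 129309972, with 54597 bases between them. Il1rn lies on the plus strand of the same chromosome at 24336853 to 24351494. The 250 bases before the RefSeq start site of these 3 genes are printed because the results compare these ligands with their antagonist. They were taken 5′ to 3′ from the RefSeq promoter windows of GRCm38.p6, at chr2:129371140-129371389 (minus strand) for Il1b, chr2:129309973-129310222 (minus strand) for Il1a and chr2:24336610-24336859 (plus strand) for the first of 3 Il1rn starts. Capitals mark motif matches: a TATA box (TATAAA) in Il1b and Il1a, and an AP-1 motif (TGACTCA or its reverse complement TGAGTCA) in Il1a and Il1rn.
Il1b: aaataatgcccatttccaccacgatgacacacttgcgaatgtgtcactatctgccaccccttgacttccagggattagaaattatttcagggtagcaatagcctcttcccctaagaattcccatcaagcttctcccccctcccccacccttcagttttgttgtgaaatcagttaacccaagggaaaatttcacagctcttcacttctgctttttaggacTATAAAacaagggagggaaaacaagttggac
Il1a: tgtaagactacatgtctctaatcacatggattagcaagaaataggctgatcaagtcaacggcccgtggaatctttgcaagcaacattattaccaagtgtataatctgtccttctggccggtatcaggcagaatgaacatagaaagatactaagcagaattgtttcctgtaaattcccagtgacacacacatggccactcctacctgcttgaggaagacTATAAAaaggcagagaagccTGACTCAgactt
Il1rn: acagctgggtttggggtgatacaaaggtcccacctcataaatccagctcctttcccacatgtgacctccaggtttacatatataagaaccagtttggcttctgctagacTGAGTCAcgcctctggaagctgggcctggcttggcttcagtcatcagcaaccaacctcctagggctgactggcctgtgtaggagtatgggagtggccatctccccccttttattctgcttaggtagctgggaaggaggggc
The TATA box began 31 bases before the start of Il1b and 32 bases before that of Il1a. The AP-1 match lay 12 to 6 bases before the Il1a start and 141 to 135 bases before the first Il1rn start. The windows of the other Il1rn starts, which are not printed, held no motif match. On either strand, 12.4% of 32851 windows of the same length held the TATA letters and 4.46% held the AP-1 letters. TTGCNNAA (C/EBP) was in 9.56% of windows, TTCNNNGAA (STAT) in 7.02%, GAAANNGAAA (interferon-stimulated response element) in 2.98% and the NF-kB motif in 7.25%, and none of these 4 was in the 3 printed windows. Among the other members, an Nlrp3 window held an NF-kB match, the Il1r2 window a STAT match and the Il18 window a TATA match at 175 to 170 bases before the start. A match describes the letters only. Il1b overlaps the antisense gene Il1bos, Il1a overlaps Gm14023, Il1r2 overlaps Gm16894 and Gm37347, and Il18 overlaps Bco2 and Tex12. Whether the counting used strand is not given in the sources used here, so reads of these overlapping genes may be shared.

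Levels are given in CPM, the UMIs of a gene for every 1000000 UMIs in the sum of all cells of that type from 1 graft. Grafts held 350 to 1967 cells and 1742750 to 9729230 UMIs. At least 10 cells of a type were required, which kept 16 grafts for macrophages, 15 for monocytes, 16 for dendritic cells and 12 for granulocytes (3, 4, 2 and 3 grafts for WT day 10, Rnls mutant day 10, WT day 17 and Rnls mutant day 17). Median UMIs per cell were 4719 in macrophages, 4530 in monocytes, 6281.5 in dendritic cells and 1319 in granulocytes. Cells of the WT day 17 library were the deepest of the 4 groups in each of these types, with medians of 12824 UMIs in dendritic cells and 7715 in macrophages. Of the cell barcodes, 0.188% (42) were found in 2 or more libraries. The type labels were checked against marker genes. The 12 granulocyte markers, with S100a8 and S100a9 leading, summed to 27899 to 138979 CPM in granulocytes and to at most 188 CPM in any graft of the other 3 types, and of 10 eosinophil, basophil and mast cell markers 6 were at 0 in granulocytes (Prg2, Epx and Mcpt8 among them), with the list summing to at most 42.4 CPM in a graft and Ear2, Ear1, Siglecf and Cpa3 detected.

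Granulocytes held the highest level of Il1b, and this level was far above that of every other type. It was 15263 ± 4378 CPM (SD, n = 12 grafts) in granulocytes, 1051 ± 652 in monocytes (n = 15), 979 ± 650 in macrophages (n = 16) and 971 ± 287 in dendritic cells (n = 16). Granulocytes were above monocytes in 12 of 12 grafts, whereas over both days monocytes, macrophages and dendritic cells did not differ from their neighbours in this order by more than the SD over grafts. The days differed in this order, since macrophages were at 1436 ± 628 CPM and monocytes at 639 ± 142 on day 10 (n = 8 each), against 522 ± 182 (n = 8) and 1523 ± 693 (n = 7) on day 17. The lymphoid types held 7.14 ± 2.56 CPM in CD4 T cells and 11.2 ± 8.73 in CD8 T cells (n = 16 each).

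The antagonist and the decoy receptor shared the granulocyte peak but differed in their next type. Il1rn was at 2214 ± 757 CPM in granulocytes, 467 ± 306 in macrophages, 427 ± 216 in monocytes and 146 ± 142 in dendritic cells. Il1r2 was at 1160 ± 326 CPM in granulocytes, 79.0 ± 27.4 in dendritic cells, 46.4 ± 26.0 in regulatory T cells (n = 14), 14.3 ± 11.8 in macrophages and 11.6 ± 8.40 in monocytes. Regulatory T cells were thus the one lymphoid type with more Il1r2 than macrophages and monocytes. In CD8 T cells Il1r2 was at 0.181 ± 0.521 CPM and in NK cells it was at 0 in 16 grafts.

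The second ligand, Il1a, was mostly a granulocyte and macrophage transcript. It was at 402 ± 295 CPM in granulocytes, 29.2 ± 25.0 in macrophages, 5.84 ± 12.2 in monocytes and 1.14 ± 1.73 in dendritic cells. Dendritic cells of the 4 groups held 1 to 3 Il1a UMIs per group, so that no difference in Il1a could be seen there at this depth.

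The sensor Nlrp3 was at 1506 ± 494 CPM in granulocytes, 210 ± 72.5 in macrophages, 170 ± 49.8 in monocytes and 58.4 ± 21.0 in dendritic cells. Macrophages were above monocytes in 8 of 15 grafts for Nlrp3 and in 9 of 15 for Il1rn, so the order of this pair was not stable over grafts. Casp1 had no such peak. It was at 144 ± 35.8 CPM in monocytes, 143 ± 79.1 in granulocytes, 130 ± 30.9 in macrophages, 85.1 ± 18.8 in CD8 T cells, 75.8 ± 20.3 in CD4 T cells and 53.3 ± 20.8 in dendritic cells. Gsdmd was similarly flat over the myeloid types, at 84.5 ± 51.5 CPM in granulocytes, 80.1 ± 18.7 in monocytes, 68.8 ± 18.3 in macrophages and 55.9 ± 25.6 in dendritic cells, against 20.1 ± 8.34 in CD4 T cells. For Il18 the values were 91.5 ± 47.5 CPM in granulocytes, 66.5 ± 20.0 in monocytes, 43.7 ± 9.26 in macrophages and 21.5 ± 12.6 in dendritic cells. The types were made by clustering these same cells, so these orders are descriptions and were not tested.

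**Figure D1:**
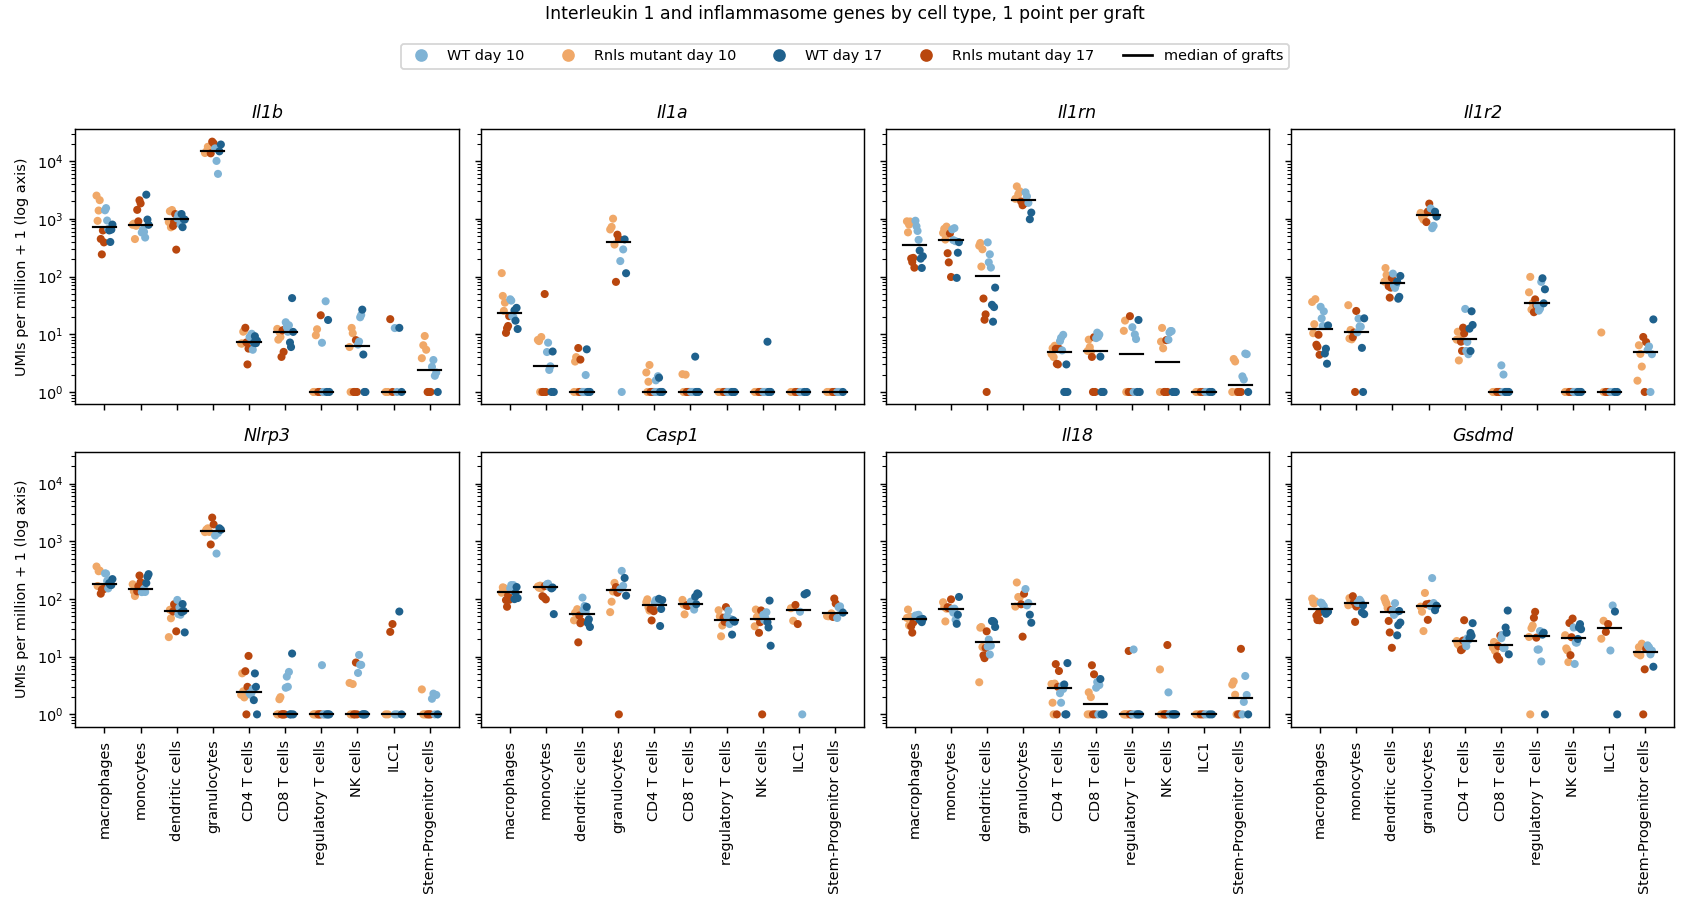
Level of each of the 8 genes (CPM + 1, log axis) in 10 cell types, with 1 point per graft coloured by genotype and day. Il1b, Il1rn, Il1r2 and Nlrp3 are highest in granulocytes, whereas Casp1 and Gsdmd lie close together in granulocytes, monocytes and macrophages.

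For Il1b, the type with the highest level was not the main source of the transcript when all grafts were pooled. In single grafts granulocytes held 1.75% to 47.1% of the Il1b UMIs and macrophages 30.2% to 79.0%, and granulocytes were above macrophages in some grafts. Granulocytes were 1.64% of the cells and held 14.6% of the 60275 Il1b UMIs, whereas macrophages held 56.8%, monocytes 14.1% and dendritic cells 13.9%. For Il1r2 the order was different, with 31.5% of UMIs in granulocytes, 29.5% in dendritic cells and 21.4% in macrophages. By day, dendritic cells led at day 10 (32.7% against 24.8% in granulocytes) and granulocytes at day 17 (46.2% against 22.4%). Macrophages held 74.9% of the Il1a UMIs, 70.8% of those of Nlrp3 and 62.5% of those of Il18. T cells mattered for Casp1, of which CD4 T cells held 12.5% and CD8 T cells 7.33%.

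Depth differs between the types, so each cell was thinned to 1000 UMIs before cells with a UMI were counted. After thinning, 95.2% of granulocytes held an Il1b UMI (96.2% unthinned), against 36.6% of dendritic cells (59.4%), 34.6% of monocytes (57.4%) and 26.5% of macrophages (41.4%). In CD4 T cells, taken as a background for free RNA, the share was 0.947% (2.50%). Il1b was therefore detected in nearly all granulocytes, though the share detected does not tell how even its level was among them. In macrophages the tenth of cells with most Il1b held 67.5% of its UMIs, counted without thinning, so that depth enters this value. Il1rn was detected in 69.1% of granulocytes, 32.1% of monocytes, 21.6% of macrophages and 13.3% of dendritic cells after thinning, and in 0.511% of CD4 T cells. Thinned shares for Nlrp3 were 63.3% in granulocytes, 15.1% in macrophages and 12.1% in monocytes, against 0.189% in CD4 T cells. Casp1 was detected in 7.56% of CD4 T cells after thinning, not far from the 10.7% in macrophages and 11.0% in granulocytes.

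Between day 10 and day 17 the 4 myeloid types went different ways, and in macrophages all 8 genes fell. The day was tested as the mean of both genotypes with edgeR's quasi-likelihood test on graft sums over all genes, and a gene was called at an adjusted p of 0.05. In macrophages 8 of 8 members were tested and 8 were lower at day 17, with a median log2 fold change of -1.17. Day moved much of the macrophage transcriptome, since 50.9% of the 9331 genes tested were called and 25.3% were called lower, with a median of 0.02 over all genes. The direction over 8 of 8 members therefore stands beside a background in which about as many genes rose as fell.

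For Il1b in macrophages, the WT day 10 grafts had 1405, 1533, 935 and 665 CPM and the Rnls mutant day 10 grafts 2526, 922, 1393 and 2105. At day 17 the WT grafts had 629, 396, 650 and 794 CPM and the Rnls mutant grafts 447, 241, 628 and 390. The days overlapped only through the lowest WT day 10 graft. The log2 fold change of Il1b was -1.60 ± 0.23 (SE, edgeR adjusted p = 2.82e-05).
Il1a in macrophages ranged from 19.0 to 114 CPM at day 10 (median 35.8, n = 8) and from 9.57 to 27.7 at day 17 (median 14.5), a log2 fold change of -1.49 ± 0.29 (edgeR adjusted p = 0.000409).

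The antagonist fell further. Il1rn in macrophages was at 926, 743, 616 and 431 CPM in WT day 10 grafts and at 904, 582, 792 and 898 in Rnls mutant day 10 grafts. At day 17 it was at 281, 203, 140 and 223 CPM in WT grafts and at 204, 177, 209 and 142 in Rnls mutant grafts. The 8 grafts of each day did not overlap, as was the case in the lower direction for 3.95% of all genes tested, and the log2 fold change was -2.05 ± 0.16 (edgeR adjusted p = 9.08e-08). Il1r2, low in macrophages, went from a median of 20.9 to 4.84 CPM with a log2 fold change of -2.24 ± 0.36 (edgeR adjusted p = 7.64e-05).

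The inflammasome genes fell by less. Nlrp3 had 151 to 364 CPM at day 10 (median 275) and 122 to 220 at day 17 (median 161), a log2 fold change of -0.80 ± 0.15 (edgeR adjusted p = 0.00029). Casp1 was between 127 and 173 CPM at day 10 and between 72.3 and 160 at day 17, with a log2 fold change of -0.65 ± 0.11. For Il18 the ranges were 33.7 to 64.5 and 25.1 to 44.1 CPM, and the log2 fold change was -0.56 ± 0.12. Gsdmd did not overlap between the days, with 74.0 to 101 CPM at day 10 and 41.8 to 59.3 at day 17, and its log2 fold change was -0.85 ± 0.08 (edgeR adjusted p = 3.64e-07). Adjusted p was 0.000136 for Casp1 and 0.000951 for Il18. Within a genotype, 8 of 8 members were lower in Rnls mutant grafts and 5 of 8 in WT grafts, where Il1a, Nlrp3 and Il18 did not pass (adjusted p 0.278, 0.14 and 0.0655), beside 42.0% and 25.1% of all genes called.

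Monocytes parted the ligand from the antagonist. Of 7 members tested in monocytes (Il1a was too low to be tested), Il1b was higher and Il1rn lower at day 17, beside 14.4% of 8092 genes called, 6.31% higher and 8.11% lower. Il1b was at 579, 649, 594 and 473 CPM in WT day 10 grafts and at 788, 824, 445 and 757 in Rnls mutant day 10 grafts. It was at 2621, 970 and 787 CPM in the 3 WT day 17 grafts with enough monocytes and at 1430, 904, 2098 and 1850 in the Rnls mutant day 17 grafts. Only 1 day 17 graft lay below the highest day 10 graft, and the log2 fold change was 1.09 ± 0.22 (edgeR adjusted p = 0.00265). Without WT day 17 replicate 1, which had the highest value, it was 0.68, and the adjusted p over all alternatives stayed at or below 0.0201.
Il1rn in monocytes was at 655, 426, 689 and 408 CPM in WT day 10 grafts, at 568, 670, 436 and 733 in Rnls mutant day 10 grafts, at 93.8, 258 and 393 in WT day 17 grafts and at 253, 175, 556 and 97.4 in Rnls mutant day 17 grafts. Only Rnls mutant day 17 replicate 3 lay within the day 10 range, and the log2 fold change was -1.37 ± 0.28 (edgeR adjusted p = 0.00294). Within WT grafts both genes were called (Il1b 1.22 ± 0.31, edgeR adjusted p = 0.035, and Il1rn -1.51, 0.0434, beside 3.84% of genes), and within Rnls mutant grafts neither passed (0.96 ± 0.30, 0.0822, and -1.23, 0.0741, beside 3.19% of genes). Monocytes of day 17 grafts were few, with 132 cells in WT and 118 in Rnls mutant grafts against 1177 and 918 at day 10, which limits the precision of these values.

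The remaining members did not pass in monocytes. Casp1 had a log2 fold change of -0.50 (edgeR adjusted p = 0.0536), Gsdmd one of -0.45 (0.108), Nlrp3 one of 0.39 (0.104), Il1r2 one of -1.34 (0.19) and Il18 one of -0.19 (0.638). Nlrp3 was between 111 and 178 CPM at day 10 and between 134 and 268 at day 17. Without WT day 17 replicate 3, Casp1 (-0.58, adjusted p = 0.0178) and Gsdmd (-0.58, adjusted p = 0.0393) were called as well, which made 4 members.

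**Figure D2:**
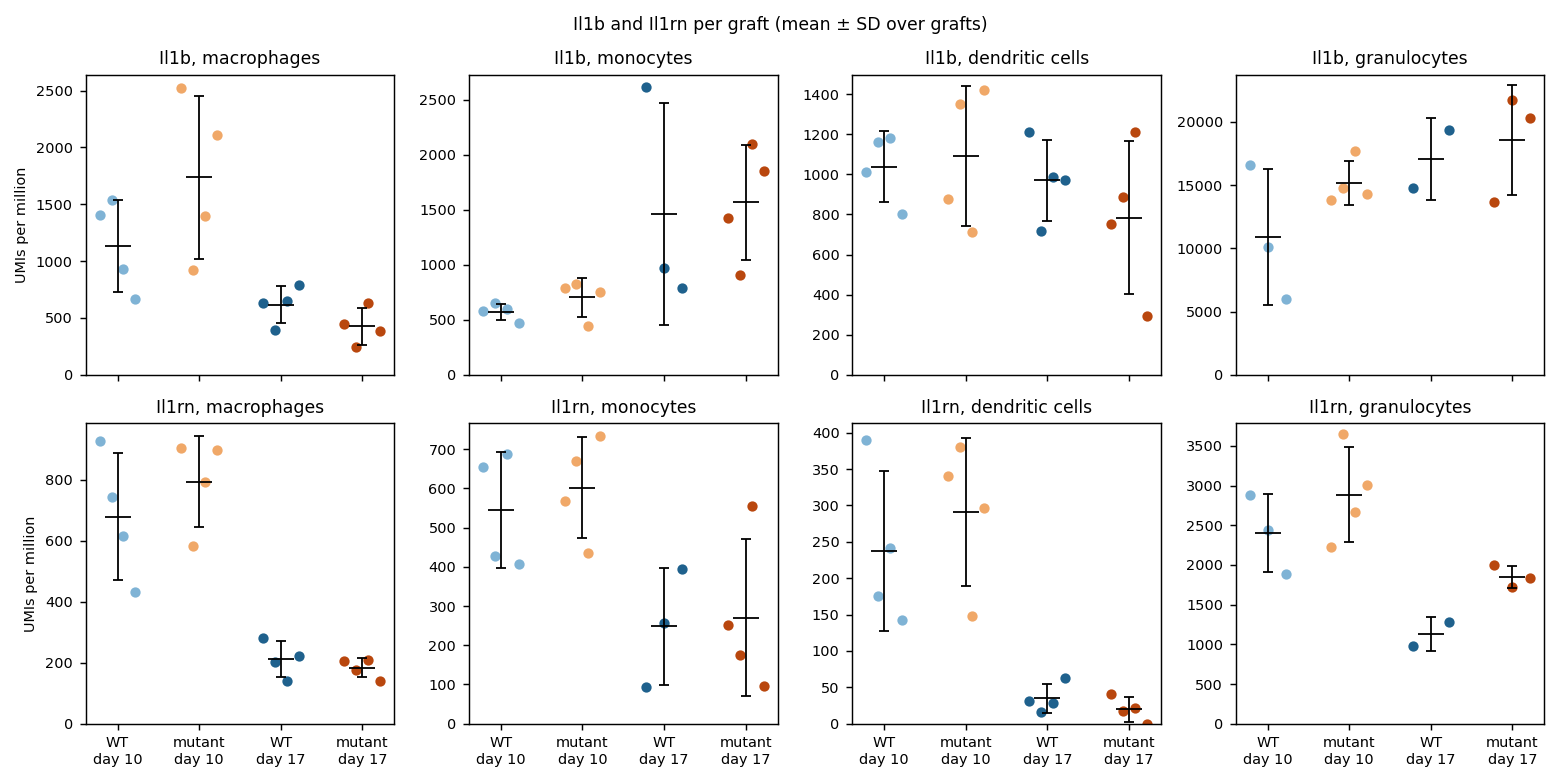
Il1b and Il1rn in macrophages, monocytes, dendritic cells and granulocytes (CPM), with 1 dot per graft and the mean ± SD of each genotype and day. Il1b is higher at day 17 in monocytes and lower in macrophages, while Il1rn is lower at day 17 in each of the 4 types.

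In dendritic cells the antagonist fell to near 0, while Il1b did not pass the test. Il1rn was at 390, 176, 242 and 142 CPM in WT day 10 grafts and at 341, 381, 148 and 296 in Rnls mutant day 10 grafts. At day 17 it was at 31.4, 15.5, 28.6 and 63.4 CPM in WT grafts and at 40.6, 16.9, 21.1 and 0 in Rnls mutant grafts. The days did not overlap (2.72% of genes were lower without overlap), and the log2 fold change was -3.18 ± 0.31 (edgeR adjusted p = 1.11e-06). Casp1 (-0.70, edgeR adjusted p = 0.02) and Gsdmd (-0.77, edgeR adjusted p = 0.0142) were also lower, which made 3 of 7 members called beside 27.1% of 5700 genes. Both calls rested on few cells: without the 2 WT day 17 grafts under 400 cells the adjusted p was 0.0678 for Casp1 and 0.0572 for Gsdmd, and without Rnls mutant day 17 replicate 1 it was 0.0759 for Casp1. Il1b was between 712 and 1421 CPM at day 10 and between 292 and 1211 at day 17, with a log2 fold change of -0.25 (edgeR adjusted p = 0.358). Il1r2 had medians of 86.8 and 65.1 CPM and a log2 fold change of -0.53 (edgeR adjusted p = 0.0504). Il18 was called higher at day 17 in WT dendritic cells alone (1.41 ± 0.40, adjusted p = 0.0309, with 9.89 to 18.8 CPM at day 10 and 31.7 to 40.4 at day 17), where 10.2% of genes were called and 7.05% were higher without overlap. In Rnls mutant grafts its log2 fold change was -0.75, and the difference between the genotypes did not pass (adjusted p = 0.644).

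In granulocytes only the antagonist was called among the 5 members tested, beside 8.74% of 927 genes. Il1rn was at 2878, 2443 and 1891 CPM in WT day 10 grafts, at 2223, 3648, 2666 and 3004 in Rnls mutant day 10 grafts, at 983 and 1282 in WT day 17 grafts and at 1995, 1718 and 1834 in Rnls mutant day 17 grafts. The log2 fold change was -0.86 ± 0.20 (edgeR adjusted p = 0.0133). This call was lost without WT day 17 replicate 1 (adjusted p = 0.085) and when grafts with as few as 1 granulocyte entered (0.193). Il1b was between 6009 and 17725 CPM at day 10 and between 13648 and 21746 at day 17, with a log2 fold change of 0.50 (adjusted p = 0.146) that passed without WT day 10 replicate 1 (0.73, adjusted p = 0.0356). Nlrp3 (0.44), Il1r2 (0.31) and Il1a (0.06) did not pass. Casp1, Il18 and Gsdmd had too few UMIs in granulocytes to be tested.

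Heat shock transcripts moved with the day in 3 of the 4 types. The 10 genes of a dissociation stress list summed to 8786 to 19501 CPM in macrophages at day 10 and to 3643 to 8253 at day 17. In monocytes they summed to 6520 to 12510 and 2614 to 4148 CPM, and in dendritic cells to 4638 to 9678 and 2431 to 4134. Hsp90aa1, Hspa1a, Hspa1b and Dnaja1, which encode chaperones, were called lower at day 17 in these 3 types, whereas Fosb, an early response transcription factor, was called higher. The other genes of the list differed by type. In dendritic cells Fos (log2 fold change 1.75), Egr1 (1.21), Junb (0.67) and Ier2 (0.60) were called higher. In macrophages Fos (-0.78) and Jun (-0.81) were called lower, as was Jun in monocytes (-0.68). In granulocytes Hsp90aa1 alone of the list was called (lower) and the sums overlapped, with 3589 to 8111 CPM at day 10 and 6226 to 8639 at day 17. The part of these transcripts in the day results was not tested. Sums of a type do not separate fewer cells that express a gene from less RNA per cell. Shares of cells with a UMI were not compared between the days here.

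**Figure D3:**
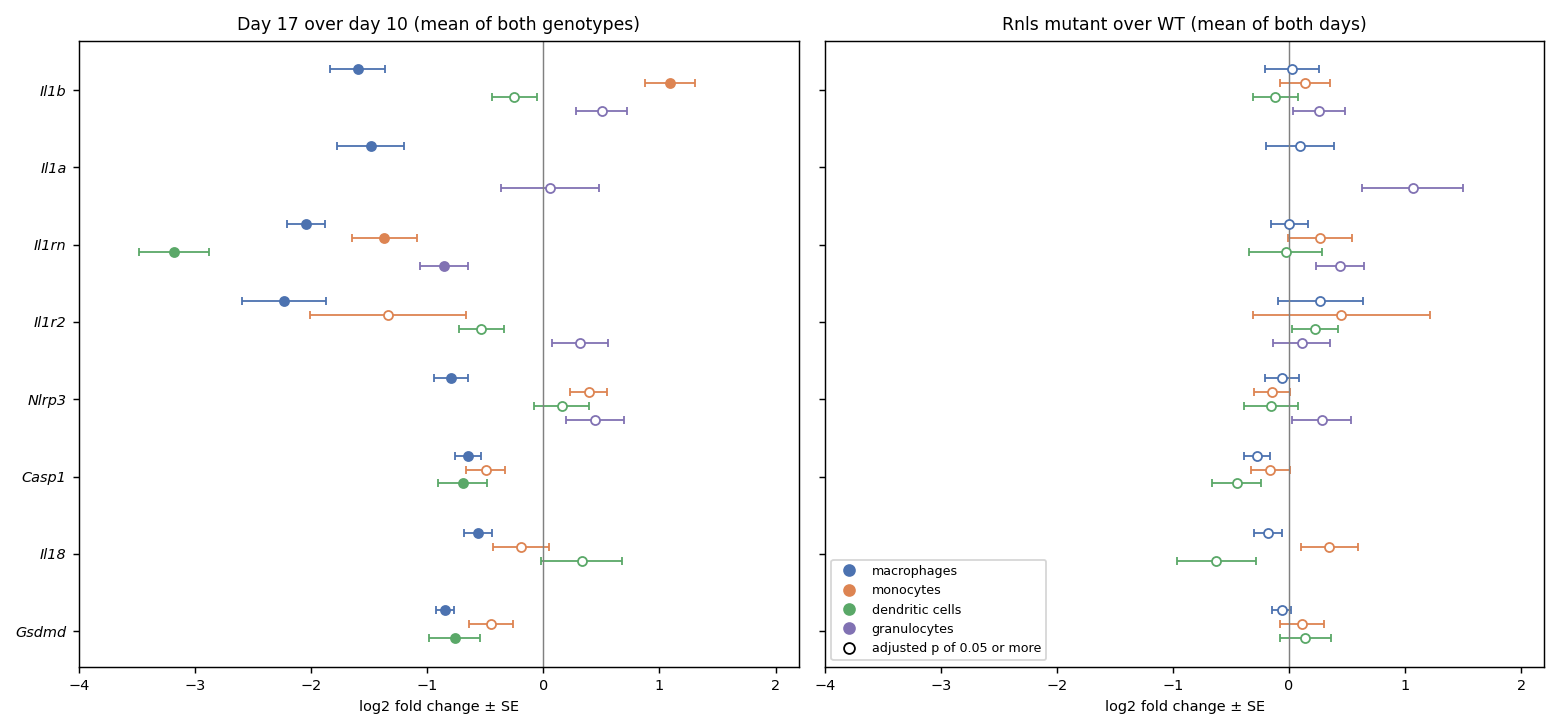
Log2 fold change with SE of each gene in each myeloid type, on the left for day 17 over day 10 (mean of both genotypes) and on the right for Rnls mutant over WT (mean of both days), with filled symbols where the edgeR adjusted p was below 0.05. In the left panel the 8 macrophage values are filled and below 0 and the monocyte Il1b value is filled and above 0, whereas the right panel holds no filled symbol.

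The difference between types in the day change was tested in a fit with the graft as a block. This test was added after the values had been seen. For Il1b, the change in monocytes exceeded that in macrophages by 2.41 ± 0.27 on the log2 scale (edgeR adjusted p = 5.49e-06), and it stayed between 2.26 and 2.66 when any 1 graft was left out. Nlrp3 differed as well, by 1.03 ± 0.20 (edgeR adjusted p = 0.0018), so that 2 of 8 members were called beside 6.95% of genes, whereas Il1rn was not called (0.50 ± 0.29, adjusted p = 0.364), although it was without WT day 17 replicate 1 (0.93, adjusted p = 0.018). Dendritic cells against macrophages differed for 3 of 8 members beside 11.1% of genes: Il1b by 1.19 ± 0.27 (edgeR adjusted p = 0.00511), Il1r2 by 1.58 ± 0.36 (0.00516) and Il1rn by -1.15 ± 0.29 (0.00973). Granulocytes against macrophages differed for Il1b by 1.62 ± 0.34 (edgeR adjusted p = 0.000978) and for Il1r2 by 1.87 ± 0.42 (0.00303), beside 0.826% of genes. Monocytes against dendritic cells differed for Il1b by 1.25 ± 0.24 (edgeR adjusted p = 0.00167) and for Il1rn by 1.82 ± 0.30 (0.00064), beside 6.45% of genes.

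The balance of antagonist to ligand was described by the number of Il1rn UMIs per Il1b UMI in each graft. This ratio was chosen after the values were seen and was not tested. In monocytes its median went from 0.916 at day 10 (0.657 to 1.16) to 0.194 at day 17 (0.0358 to 0.50). In dendritic cells it went from 0.208 (0.151 to 0.389) to 0.0238 (0 to 0.0654), and in granulocytes from 0.21 (0.15 to 0.315) to 0.079 (0.0661 to 0.146). In these 3 types the ranges of the days did not overlap. Macrophages were different, with 0.60 (0.358 to 0.659) and 0.405 (0.215 to 0.733) and overlapping ranges, and both genes were lower there at day 17.

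**Figure D4:**
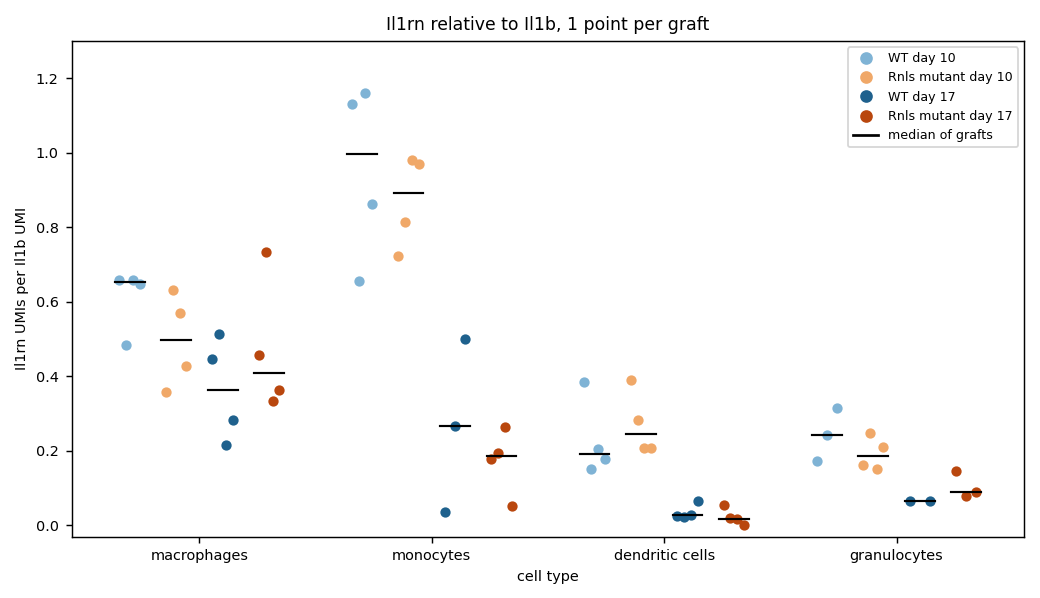
Il1rn UMIs per Il1b UMI in each graft by cell type and day, with the median as a bar. The ranges of day 10 and day 17 are apart in monocytes, dendritic cells and granulocytes and overlap in macrophages.

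The authors' clusters show where within a type these transcripts lay. Cluster values are sums over all grafts and were not tested between clusters, since the clusters were made from the same cells. Macrophage cluster 4, led by Inhba, Slpi and Cxcl9, had the highest levels of Il1b among the 6 macrophage clusters (2167 CPM), of Il1rn (1003), of Il1a (67.1) and of Nlrp3 (336). Macrophage cluster 2, led by Cxcl13, Apoe and Ccl8, had 105 CPM of Il1b and 91.7 of Il1rn. Cluster 4 made up a median of 63.0% of the macrophages of a graft at day 10 and 5.63% at day 17, and cluster 2 made up 2.78% and 31.6%. Casp1 was less dependent on the cluster, with 107 to 193 CPM over the macrophage clusters.

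Monocyte cluster 1, led by Fn1, Vcan and Cxcl9, had 577 CPM of Il1b and 567 of Il1rn over both days. Its median over grafts was 519 CPM of Il1b and 681 of Il1rn on day 10 (n = 8), and 1228 and 258 on day 17 (n = 5). Monocyte cluster 14, led by Ace, Spic and Cd300e, had 1647 CPM of Il1b and 269 of Il1rn over both days, with medians of 1390 and 340 CPM on day 10 (n = 7) and 2071 and 52.2 on day 17 (n = 5). Its median share of monocytes over grafts went from 15.5% on day 10 (5.36% to 44.1%) to 55.8% on day 17 (0% to 76.9%). These ranges overlapped, and the shares were taken without the minimum of 10 cells, over grafts with as few as 7 monocytes. Among dendritic cells, cluster 17 (Cd209a, Clec4n, Mgl2) had 1878 CPM of Il1b, 312 of Il1rn and 194 of Il1r2. Cluster 19 (Xcr1, Itgae, Wdfy4) had 620 CPM of Il1b but 8.56 of Il1rn, and its share went from 20.7% to 55.1%. Cluster 21 (Fscn1, Ccl5, Cd63) had 910 CPM of Il1b and 418 of Il1rn. Clusters 17 and 21 went from median shares of 41.2% and 24.6% to 14.9% and 11.4%, and no day 17 graft held 10 cells of either. The part of this shift in the lower Il1rn of dendritic cells was not tested.

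Fits within single clusters, added after the values had been seen, could be made for 4 of them. Within monocyte cluster 1 Il1b was higher at day 17 (1.23 ± 0.19, edgeR adjusted p = 0.000576) and Il1rn lower (-1.08 ± 0.25, 0.0168), beside 3.35% of genes called. Within macrophage cluster 4 Il1rn (-0.85 ± 0.18, edgeR adjusted p = 0.00405), Il1r2 (-1.65 ± 0.51, 0.0343) and Gsdmd (-0.47 ± 0.14, 0.0295) were lower beside 16.3% of genes, and Il1b did not pass (-0.26 ± 0.26, 0.543). Macrophage cluster 5 was led by Gm26917, Gm42418 and Xylt1, and 2520 genes were tested there against 7620 in cluster 4. It gave the same calls for Il1rn and Il1b, with Il1rn at -1.46 ± 0.28 (edgeR adjusted p = 0.000826) and Il1b at 0.04 ± 0.30 (0.94), beside 18.9% of genes. Within dendritic cluster 19 Nlrp3 was higher (0.93 ± 0.33, edgeR adjusted p = 0.0437), beside 24.6% of genes.

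**Figure D5:**
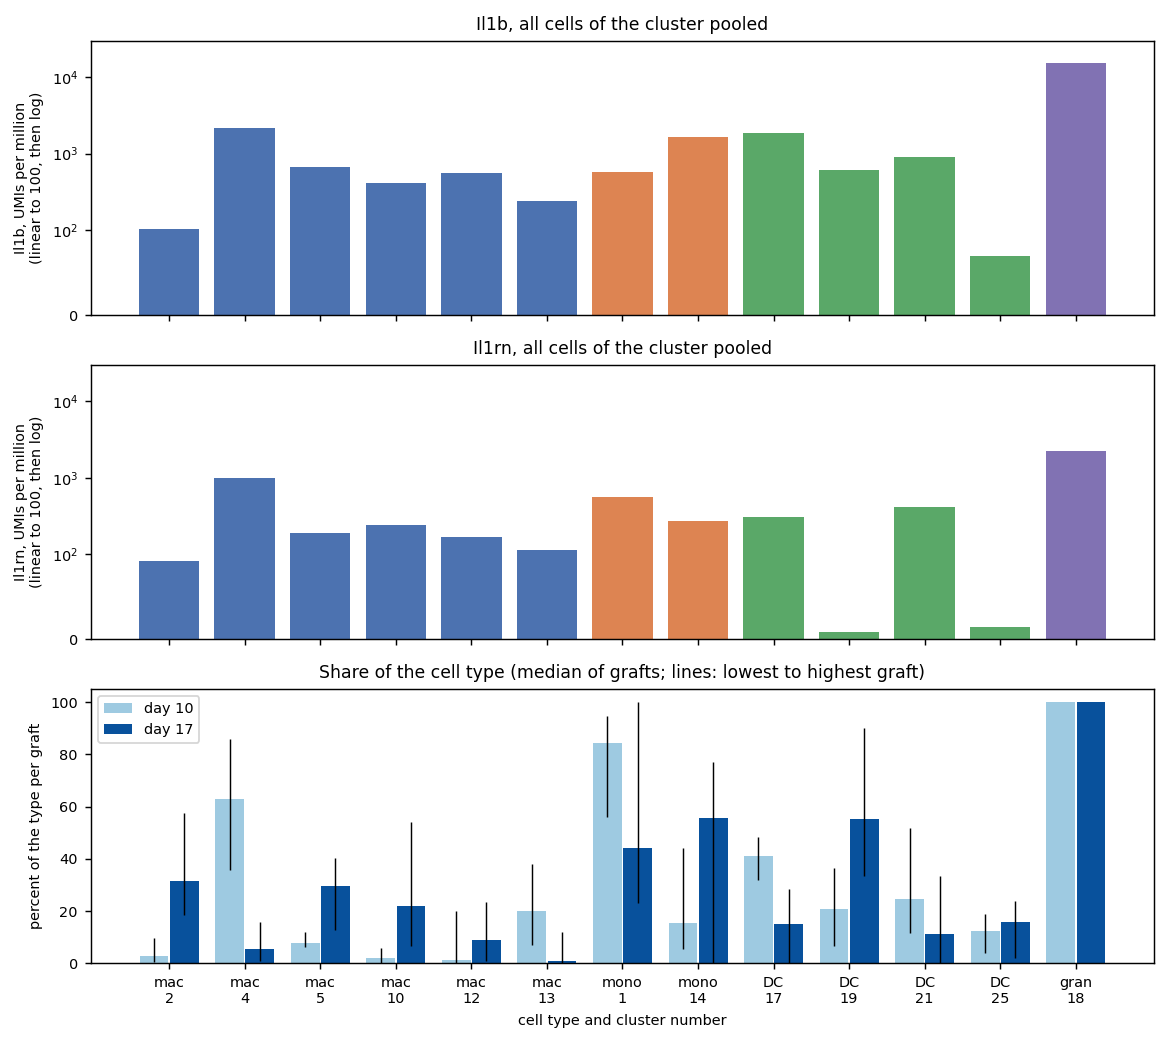
Il1b (top) and Il1rn (middle) in the authors' myeloid clusters as pooled CPM, on an axis that is linear up to 100 and logarithmic above, and the median share of each cluster within its type at day 10 and day 17 (bottom). Macrophage cluster 4, with 2167 CPM of Il1b, went from 63.0% to 5.63% of macrophages, and monocyte cluster 14, with 1647 CPM, from 15.5% to 55.8% of monocytes. The ranges of the days overlapped for monocyte cluster 14.

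When all cells of a graft were summed, so that the composition of the graft enters, the antagonist was the only member called. Il1b was between 362 and 1029 CPM at day 10 and between 246 and 837 at day 17 (log2 fold change -0.12, edgeR adjusted p = 0.695). This was Il1rn, beside 57.6% of 12560 genes, with 205 to 422 CPM at day 10, 94.7 to 176 at day 17 (no overlap, as for 6.51% of genes in the lower direction) and a log2 fold change of -1.16 (edgeR adjusted p = 2.3e-05). The share of macrophages among these cells was 16.5% ± 7.16 (SD) on day 10 against 55.0% ± 17.0 on day 17, with 8 grafts per day and an adjusted p of 0.00122 in a two-sided exact permutation test, and that of monocytes 14.7% ± 3.38 against 3.32% ± 2.89 (adjusted p = 0.00122, exact permutation test). The share of Il1rn UMIs that lay in monocytes was 31.3% at day 10 and 4.37% at day 17, and that in macrophages 56.0% and 87.2%. Granulocytes were 1.79% ± 1.28 and 1.98% ± 1.71 of the cells (adjusted p = 0.773, exact permutation test).

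The comparison of Rnls mutant with WT grafts, the question of the study, gave no called member in any of the 4 types or in all CD45+ cells at either day. At day 10 the background was itself near nil, with 0.0322% of genes called in macrophages, 0% in monocytes, 0.0175% in dendritic cells, 0.971% in granulocytes and 0.0796% in all CD45+ cells. At day 17 it was 0%, 0%, 0.0175%, 0.216% and 0.0159% in the same order. For the mean of both days no gene was called in any of them by edgeR. DESeq2 called no member in the 4 types for this mean. At an unadjusted p of 0.05, 1 of 8 members passed in macrophages, 0 of 7 in monocytes, 1 of 7 in dendritic cells and 2 of 5 in granulocytes for the mean of both days, beside 4.1%, 4.07%, 5.53% and 7.98% of all genes.

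In macrophages Il1b had a log2 fold change of 0.03 ± 0.23 over both days, with 0.58 ± 0.32 at day 10 (edgeR adjusted p = 0.74) and -0.53 ± 0.33 at day 17 (0.86). The difference between the days, -1.12 ± 0.46, did not pass (edgeR adjusted p = 0.471). Il1rn was at 0.00 ± 0.16 over both days in macrophages, 0.27 ± 0.28 in monocytes, -0.03 ± 0.31 in dendritic cells and 0.44 ± 0.20 in granulocytes. Casp1 was the member with an unadjusted p under 0.05 in macrophages, at -0.28 ± 0.11 (edgeR adjusted p = 1.00).

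Il1a in day 10 granulocytes had the lowest adjusted p of any member between the genotypes at a single day. It was at 185, 0 and 294 CPM in the 3 WT grafts and at 654, 724, 1005 and 357 in the 4 Rnls mutant grafts. The groups did not overlap, as was the case for 12.7% of all genes tested in this comparison, and the log2 fold change of 1.93 ± 0.60 did not pass (edgeR adjusted p = 0.146). The share of granulocytes at day 10 was 0.661% ± 0.258 in WT and 2.92% ± 0.605 in Rnls mutant grafts (SD, n = 4 each, exact permutation test, two-sided p = 0.0286, the smallest that 4 against 4 allows, adjusted p over cell types 0.343). In dendritic cells at day 17 Il18 was at 40.4, 40.3, 38.5 and 31.7 CPM in WT and at 9.55, 8.43, 13.2 and 26.5 in Rnls mutant grafts, a log2 fold change of -1.71 ± 0.52 that did not pass (edgeR adjusted p = 0.764), where 1.6% of genes were lower without overlap.

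Other genes of the pathway were counted from lists of receptors, adaptors and kinases, further inflammasome sensors and adaptors, further caspases and gasdermins, and transcripts known to follow interleukin 1. In macrophages at day 17, 5 sensor genes were higher and 6 lower of 17 tested, 3 response genes higher and 7 lower of 19, 3 adaptors higher and 1 lower of 12, 1 receptor higher and 2 lower of 5, and 2 caspase and gasdermin genes higher and 1 lower of 7. Of all genes tested in macrophages 25.6% were higher and 25.3% lower. The lowest p-values belonged to Gbp5 (-1.40 ± 0.16), an interferon-induced GTPase, Sod2 (-1.70 ± 0.21), the mitochondrial superoxide dismutase, and Irak2 (-0.70 ± 0.10), a receptor-associated kinase, among lower genes. Among higher genes they belonged to Nek7 (0.78 ± 0.09), a partner of NLRP3, Tab2 (0.69 ± 0.10), an adaptor of the kinase TAK1, and Nfkbiz (1.24 ± 0.29), an NF-kB cofactor.

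In monocytes 3 sensor genes were higher and 1 lower of 17 tested, 4 response genes higher and 1 lower of 16, 2 adaptors higher of 10, and no receptor of 4 and no caspase or gasdermin gene of 5 was called, where 6.31% of all genes were higher and 8.11% lower. Nfkbiz (1.81 ± 0.32), Tab2 (0.96 ± 0.18) and the neutrophil chemokine Cxcl2 (1.24 ± 0.32) were higher, while Pycard (-0.70 ± 0.16), the adaptor that joins NLRP3 to caspase 1, and Sod2 (-0.52 ± 0.17) were lower. In dendritic cells 2 sensor genes were higher and 2 lower of 7 tested, 3 response genes lower of 15, 2 caspase and gasdermin genes lower of 5 and 1 receptor lower of 2, and no adaptor of 7 was called, where 13.4% of all genes were higher and 13.6% lower. There Gbp2 (-1.26 ± 0.17), Gbp5 (-1.77 ± 0.26) and Casp4 (-1.39 ± 0.22), the caspase of the noncanonical inflammasome, were lower, and Aim2 (0.87 ± 0.17), a DNA sensor, and Txnip (0.89 ± 0.24) were higher. In granulocytes 3 of 16 response genes were higher and none lower, where 4.31% of all genes were higher: Tnfaip3 (1.94 ± 0.34), a brake on NF-kB, Nfkbiz (1.25 ± 0.26) and Ptgs2 (1.08 ± 0.31), the inducible cyclooxygenase. No gene of these 5 lists was called between the genotypes in the 4 types.

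Genes with the pattern most like a member were taken over 141 sums of a graft and a cell type among 7935 genes, by Pearson's r of log2(CPM + 10). These r values are across sums that share libraries and grafts and describe the spread over cell types. Il1b was most like Tnfaip2 (0.96), Spi1 (0.96) and Ptafr (0.96), and Nlrp3 was most like Cd14 (0.96), Ptafr (0.96) and Tnfaip2 (0.96). Il1rn was most like Clec4n (0.97), Oasl2 (0.97) and Tnfaip2 (0.95), and Il1a most like Ptgs2os2 (0.94), A530013C23Rik (0.90) and Hcar2 (0.87). For Il1r2 the most alike genes were Dhrs9 (0.88), Trim30b (0.86) and Il1f9 (0.84). Casp1 had no close neighbour, since its highest r was 0.64 with Slfn2, and Gsdmd reached 0.79 with Pira2 and Prkcd. Among the members themselves Il1b was closest to Nlrp3 (0.96) and Il1rn (0.93) and farthest from Casp1 (0.44).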

How the data were processed

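Immune cells (CD45+, negative for propidium iodide) sorted from collagenase-digested grafts were pooled by hashtag and run with 10x 3′ v3.1 chemistry. Per the submitters' processing notes, reads were processed with Cell Ranger against mm10, and further filters are not given in the sources used here. The deposited count table holds whole UMI counts per gene and cell, not normalized, and the authors' deposited annotation gave graft, genotype, day, cell type and cluster. No column of per-sample values was left out (0).

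UMIs were summed per graft and cell type where at least 10 cells were present. These sums went into the quasi-likelihood test of edgeR 4.0.16 after TMM scaling and filterByExpr (R 4.3.3, limma 3.58.1) in 1 fit of the 4 groups per cell type, with Benjamini-Hochberg adjustment over all genes tested, and DESeq2 1.42.0 was the alternative. By the study's methods each mouse carried a WT and an Rnls mutant graft, so grafts of the genotypes were paired within mice. The labels do not tie a hashtag number to a mouse, so the genotypes were compared as unpaired grafts, with the number as a block only as an alternative, and p-values measure the spread between grafts of 1 library per group. The fits were tried on simulated counts with a fixed dispersion and no library effect, a setting that differs from these data. Shares of cells with a UMI were the expected shares after thinning to 1000 UMIs, and shares of types were compared by exact permutation tests within genotype or day. Python 3.11.15, pandas 2.3.3, SciPy 1.17.1 and matplotlib 3.10.9 were used. Scrublet marked 1 cell at its own threshold, so no doublet was removed.

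The 8 members were named in every comparison. Pathway genes were named at most 3 per direction and comparison, by the smallest p among those called, and the 3 most alike genes per member by Pearson's r (those of Il18 are not reported here). Members and lists were chosen with earlier results of these data known. Alternatives covered DESeq2, no filter on low counts, minimums of 1 and 20 cells, high doublet scores, cells with T cell UMIs, unthinned counts, the mean over cells, a replicate block and leaving out each graft. Positions are from the GENCODE annotation of GRCm38, and promoter windows from RefSeq matched 7 of 8 members (none for Gsdmd). Values after ± are the SD over grafts for levels and shares, and the SE of the edgeR fit for log2 fold changes and their differences.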

Additional observations from a re-analysis of the deposited data

Results flagged for a closer look

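In 8 of 144 groups of 4 grafts, 1 graft lay far from the other 3 by Dixon's criterion, which chance meets in about 1 in 20 groups. In monocytes these were Il1a in Rnls mutant day 10 grafts (lowest 0 CPM, next 6.62), Il1r2 in Rnls mutant day 10 grafts (highest 30.9, next 10.9), Il1a in Rnls mutant day 17 grafts (highest 48.8, the others 0) and Il18 in Rnls mutant day 17 grafts (highest 97.4, next 71.1). In dendritic cells they were Il1a in WT day 10 grafts (highest 0.967 CPM, the others 0) and Il1a in WT day 17 grafts (highest 4.49, the others 0), each from 1 UMI. The number of Il1rn UMIs per Il1b UMI had a low graft in WT day 10 macrophages (0.485, next 0.648) and a high graft in WT day 17 dendritic cells (0.0654, next 0.0289).

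The day 17 over day 10 change differed between cell types in 9 tests of the difference itself (edgeR, graft as block, log2 scale). Monocytes minus macrophages gave 2.41 for Il1b (adjusted p = 5.49e-06) and 1.03 for Nlrp3 (0.0018). Dendritic cells minus macrophages gave 1.19 for Il1b (adjusted p = 0.00511), -1.15 for Il1rn (0.00973) and 1.58 for Il1r2 (0.00516). Granulocytes minus macrophages gave 1.62 for Il1b (adjusted p = 0.000978) and 1.87 for Il1r2 (0.00303), and monocytes minus dendritic cells gave 1.25 for Il1b (0.00167) and 1.82 for Il1rn (0.00064). What lies behind these differences was not tested.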

How the results depend on the processing

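No called value reversed its direction under the alternatives run. In macrophages 8 members were called lower at day 17 under every alternative, leaving out each graft included (8 to 8), with Il1b between -1.72 and -1.48 and Il1rn between -2.13 and -1.96. Leaving out 1 graft gave 2 to 4 members in monocytes, 2 to 4 in dendritic cells and 0 to 2 in granulocytes. The granulocyte count was 0 with no filter on low counts and 0 with a minimum of 1 cell, where Il1rn was at -0.89 (edgeR adjusted p = 0.0586) and -0.56 (0.193), and a minimum of 20 cells gave no value there. Il1r2 in dendritic cells was called under 9 alternatives (lowest adjusted p 0.0159), Casp1 in monocytes under 4, Gsdmd in monocytes under 2, and Nlrp3 in monocytes under 2, with DESeq2 (0.0451) and without Rnls mutant day 10 replicate 1 (0.0493). The difference of monocytes and macrophages ranged from 2.26 to 2.66 for Il1b and from 0.29 to 0.93 for Il1rn, called without WT day 17 replicate 1 (0.93, adjusted p = 0.018), and that of dendritic cells and macrophages from 1.03 to 1.36 for Il1b and from -1.30 to -0.99 for Il1rn. Of 589 values of the day change 565 kept their side of the threshold, as did all 616 between genotypes, and 43 values that were called under neither setting changed sign. Shares of cells with a UMI depended on thinning. Without it, 30 of 32 shares lay outside the confidence interval of the thinned share and 2 lay within it. DESeq2 and edgeR differed in calls over all genes between genotypes. At day 10 they called 16 and 3 genes in macrophages, 2 and 0 in monocytes, 5 and 1 in dendritic cells and 83 and 10 in all CD45+ cells. At day 17 they called 13 and 0 in macrophages, 3 and 1 in dendritic cells, 1 and 2 in granulocytes and 30 and 2 in all CD45+ cells. For the mean of both days they called 1 and 0 in dendritic cells and 29 and 0 in all CD45+ cells. For the difference between the days they called 43 and 3 in macrophages, 3 and 0 in monocytes, 14 and 2 in dendritic cells, 19 and 12 in granulocytes and 98 and 18 in all CD45+ cells. For the day change of Rnls mutant monocytes they called 437 and 258. Hashtag numbers pair no grafts in the labels, and correlations of same-numbered deviations lay between -0.242 and 0.335. With the number as a replicate block 0 members were called between genotypes in the 4 types, as without it. Depth limits Il1a in dendritic cells (1 to 3 UMIs per group) and Casp1, Il18 and Gsdmd in granulocytes (median 1319 UMIs per cell), and each group is 1 library. The causes of these changes were not tested.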
